A study of Homo sapiens with 24 samples.

Results

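The 41 genes described here belong to the transcriptional response run by activating transcription factor 4 (ATF4) and include 12 cytosolic aminoacyl-tRNA synthetases. They were chosen by name from 58266 gene symbols, by no threshold on their values, though with earlier results of these data known. Of the 41, 40 reached 1 FPKM (sequenced fragments scaled to transcript length and library depth) in at least 3 of the 24 libraries and were tested among 15828 genes. The one left out was GDF15, a secreted cytokine of cell stress, which ranged between 0.0319 and 1.13 FPKM and was read no further.

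ATF4 is a transcription factor that cells make in larger amounts when amino acids run short or proteins misfold. Kinases such as GCN2 (gene EIF2AK4) and PERK (gene EIF2AK3) then phosphorylate the translation factor eIF2, which slows protein synthesis at large while the ATF4 message is translated more. With partner proteins of the C/EBP family, ATF4 switches on genes for amino acid synthesis and uptake and for charging transfer RNA, and also genes that shut the response down again. Much of the control of ATF4 is therefore on its protein, which messenger RNA levels do not measure.

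The series asks how HEK293A cells, an adherent line from human embryonic kidney, answer to the stiffness of their matrix, and what part RAP2 GTPases and Hippo signalling have in it. The cells carried a knockout of RAP2A, RAP2B and RAP2C (RAP2 tKO), of the Hippo kinases LATS1 and LATS2 (LATS dKO), or of the coactivators YAP and TAZ (YAP/TAZ dKO), or were wild type (WT). Each genotype was grown on stiff (40 kPa) and soft (1 kPa) hydrogels coated with fibronectin, in medium with serum and with no other treatment, in 3 biological replicates per group. The sources used here do not say how many clones stood behind a genotype, so that a knockout and the history of its clone cannot be told apart.

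Depth, estimated from the deposited confidence intervals, lay between 19.3 and 42.0 M fragments per library. The epithelial keratins KRT8 and KRT18 reached 536 and 451 FPKM and were never below 27.97 and 45.8 FPKM, while of the other epithelial and kidney markers EPCAM, CDH1 and PAX8 stayed at or below 0.540 FPKM, PAX2 reached 1.30 FPKM and LHX1 ranged between 0.251 and 7.02 FPKM. Of the fibroblast, immune and endothelial markers DCN, PTPRC, CD3E and CDH5 were at or near 0, VWF, PDGFRA and CD14 stayed at or below 0.883 FPKM, and COL1A1 and LUM reached 7.87 and 9.02 FPKM. YAP1 (5.49 to 6.78 FPKM in YAP/TAZ dKO, against 29.99 to 32.1 FPKM in WT), WWTR1 and LATS1 were lower in their knockout lines without overlap, and RAP2A slightly so, whereas RAP2B was higher in RAP2 tKO and RAP2C and LATS2 overlapped WT. An edited gene need not lose its message. KRT8 and KRT18 themselves rose on 40 kPa in WT (differences 0.74 and 0.70 on the log2 scale used below), and KRT8 in RAP2 tKO (0.27); their part in the results was not tested. A pair of libraries stood apart by GC content, replicate 3 of RAP2 tKO on 40 kPa and replicate 1 of LATS dKO on 40 kPa. Set against soft-gel libraries of their own genotype, their differences had a rank correlation with GC content across genes of -0.593 and -0.570, against -0.248 to 0.152 in the other 40 kPa libraries. Against their own group mean it was -0.597 and -0.567, and the other replicates of these groups, which share that mean, lay at 0.383 to 0.536. Counts are therefore also given without both.

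Promoter sequence was looked at first, since ATF4 binds with C/EBP proteins to a known element whose core is TGATGNAA, or TTNCATCA on the other strand. RefSeq windows (GRCh38.p14) covering 250 bases before and 50 after a gene's start were at hand for 32 of the 41 genes, and 11 of these genes (34.4%) held the core, against 4.46% of the 27305 genes with a window. Among the synthetases 7 of 10 held it (AARS, CARS, GARS, IARS, MARS, NARS and TARS), and among the other members 4 of 22 (ASNS, CEBPG, CHAC1 and JDP2). A match of these letters is a description of the window and does not show binding. The 6 stretches of 30 bases printed here, in the direction of the gene, show the core in capitals for members that fell on the stiff gel in some genotype (ASNS, CHAC1 and CARS) and for synthetases that were not called for stiffness in any genotype (IARS, MARS and TARS).
ASNS, chr7:97872458-97872487, minus strand: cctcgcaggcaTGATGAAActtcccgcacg
CHAC1, chr15:40953251-40953280, plus strand: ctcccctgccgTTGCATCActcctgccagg
CARS, chr11:3057407-3057436, minus strand: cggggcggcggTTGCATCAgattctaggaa
IARS, chr9:92293692-92293721, minus strand: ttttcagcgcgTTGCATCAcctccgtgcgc
MARS, chr12:57488053-57488082, plus strand: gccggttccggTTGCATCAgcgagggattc
TARS, chr5:33440956-33440985, plus strand: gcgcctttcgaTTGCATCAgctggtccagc

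The ASNS site reads TGATGAAA, while the other 5 read TTGCATCA, the reverse complement of TGATGCAA. The core was present both in members that fell with stiffness and in members that were not called. In RAP2 tKO, where 11 members fell, 3 of 11 tested members with the core and 6 of 20 with a window but no core did so.

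Differences are given on the log2(FPKM + 1) scale with the standard error of 1 limma fit over all 24 libraries, and a gene was called, that is said to rise or fall, where its p-value adjusted over all 15828 genes was below 0.05. Each call was repeated under other settings and with single libraries left out, and for calls lost in many of these the number of alternatives that kept them is given. This scale understates the change of genes near 1 FPKM. Whether groups overlapped describes the values only, and the share of all genes without overlap is not given. Of the 40 members, 12 fell on 40 kPa in at least 1 genotype and none rose in any. For these counts across genotypes no share of all genes is given. By genotype, 11 fell in RAP2 tKO, 1 in LATS dKO, 2 in YAP/TAZ dKO and 3 in WT. Taken in the order of these genotypes, the background was as follows. Of all genes tested, 3.87%, 0.708%, 0.347% and 0.986% were called, and of all genes 2.88%, 0.619%, 0.227% and 0.663% fell and 0.986%, 0.0885%, 0.12% and 0.322% rose. The members' median difference was -0.15, -0.11, -0.10 and -0.07 in the same order of genotypes, against -0.04, -0.03, -0.01 and -0.03 over all genes. Scaling the libraries to a common median ratio left 10 members falling in RAP2 tKO, without ATF4, and added ALDH18A1 as a riser there. Over all genes that scaling turned 156 higher and 456 lower calls in RAP2 tKO into 374 and 311, 14 and 98 in LATS dKO into 15 and 34, and 51 and 105 in WT into 127 and 75. In bulk RNA, fewer cells with a message and less message per cell cannot be told apart.

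**Figure D1:**
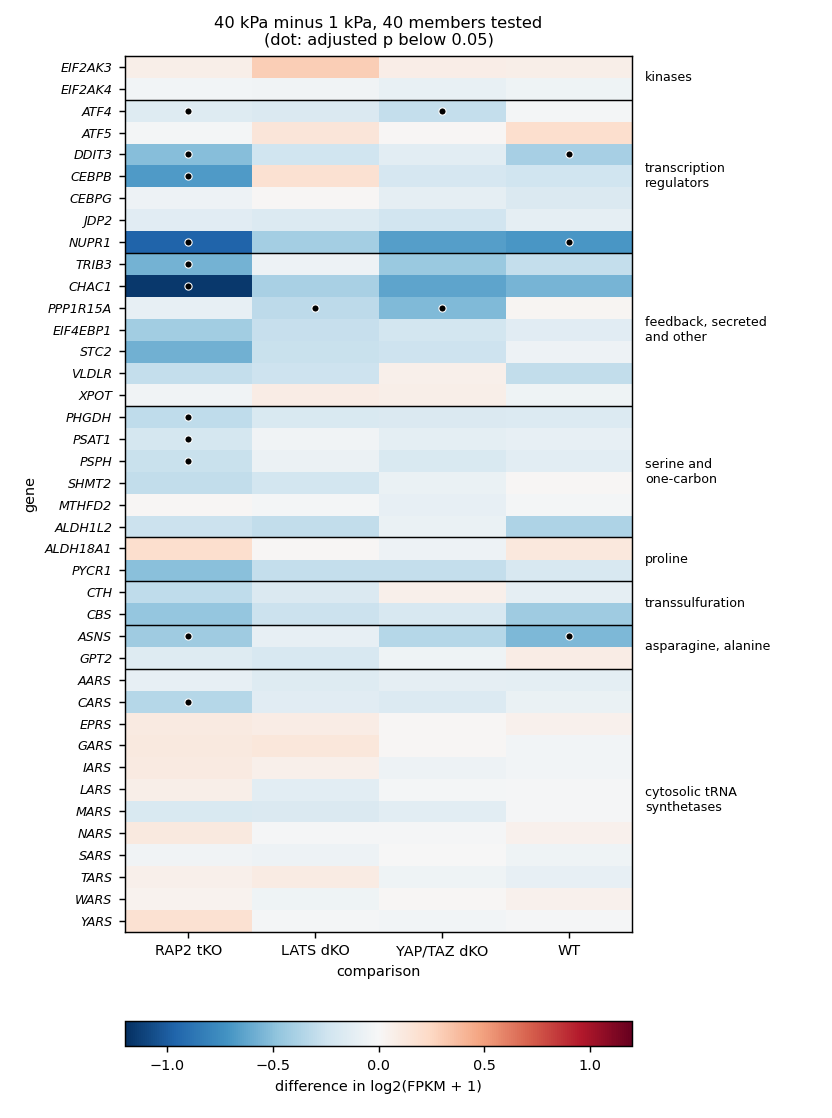
Difference in log2(FPKM + 1) between 40 and 1 kPa for the 40 members tested (rows, grouped by role) in each genotype (columns), blue where lower on 40 kPa, with a dot where the adjusted p was below 0.05. The dots lie on blue cells only, 11 of them in the RAP2 tKO column.

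In WT cells asparagine synthetase fell with the smallest p of the 3. ASNS (hg19 chr7:97481430-97501854), which makes asparagine from aspartate and glutamine, had 68.5, 73.7 and 71.3 FPKM on 40 kPa, against 102, 97.1 and 112 FPKM on 1 kPa, without overlap. The difference was -0.54 ± 0.09, adjusted p = 0.00571. DDIT3 (chr12:57910371-57914300), the transcription factor CHOP that promotes cell death under prolonged stress, had 18.2, 19.8 and 17.7 FPKM on 40 kPa, against 27.97, 22.9 and 23.3 FPKM on 1 kPa, again without overlap (-0.39 ± 0.08, adjusted p = 0.0135). NUPR1 (chr16:28544029-28550495), a small stress-induced nuclear protein, was low throughout, with 0.558, 0.573 and 0.473 FPKM on 40 kPa, against 1.68, 1.59 and 1.24 FPKM on 1 kPa (-0.70 ± 0.15, adjusted p = 0.0296). The NUPR1 call was kept in 4 of 12 alternatives and was lost whichever WT library was left out, and that of DDIT3 in 9 of 13. All 3 WT libraries on 40 kPa lay below all 3 on 1 kPa for each of these genes. DDIT3 overlaps 982 bases of MARS, a gene with a median of 776 FPKM, and fragments of the overlap cannot be assigned without the strand setting of the counting. MARS itself differed by -0.02 in WT (adjusted p = 0.98). In RAP2 tKO, where DDIT3 also fell with stiffness, MARS was not called but averaged 871 FPKM on 40 kPa, against 985 FPKM on 1 kPa. Against WT, DDIT3 and MARS both fell in LATS dKO. The part of the overlap in the DDIT3 calls was not tested.

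The glutathione-degrading enzyme CHAC1 and the transcription factor CEBPB, a partner of ATF4, did not pass the test in WT. CHAC1 (chr15:41245160-41248717) had 1.11, 0.813 and 0.973 FPKM on 40 kPa, against 1.76, 1.89 and 1.99 FPKM on 1 kPa (-0.56 ± 0.16, adjusted p = 0.11), and CEBPB (chr20:48807271-48809226) had 3.96, 3.54 and 3.67 FPKM on 40 kPa, against 4.44, 4.91 and 4.42 FPKM on 1 kPa (-0.24 ± 0.14, adjusted p = 0.521). Both genes lay lower on 40 kPa without overlap. ATF4 (chr22:39915700-39918690) had 266, 269 and 265 FPKM on 40 kPa, against 277, 276 and 260.1 FPKM on 1 kPa in WT, where the groups overlapped (-0.02 ± 0.04, adjusted p = 0.92). Its relative ATF5 (chr19:50431959-50437192), whose message is also translated more under stress, had 34.4, 30.8 and 31.1 FPKM on 40 kPa, against 27.7, 29.04 and 26.4 FPKM on 1 kPa, higher without overlap but not called (0.21 ± 0.12, adjusted p = 0.565). Without the 2 libraries that deviate with GC content, neither of them WT, 11 members fell and 1 rose in WT, beside 6.42% of all genes called (2.34% higher and 4.08% lower). ATF5 was the member that rose, and CEBPB, CEBPG, TRIB3, CHAC1, VLDLR, PHGDH, ALDH1L2 and CBS joined the 3 that fell. ATF5 overlaps 1062 bases of NUP62, a gene with a median of 135.6 FPKM, and fragments of that overlap may be shared. With the WT libraries fitted alone, ASNS was the 1 member called, beside 0.462% of all genes.

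RAP2 tKO cells had the longest list, 11 of 40 members, of which 10 were not synthetases. Leading it was CHAC1, with 0.858, 0.816 and 0.2102 FPKM on 40 kPa, against 2.53, 3.12 and 2.098 FPKM on 1 kPa (-1.15 ± 0.16, adjusted p = 0.000414). NUPR1 had 0.834, 0.308 and 0.4104 FPKM on 40 kPa, against 2.15, 1.67 and 1.94 FPKM on 1 kPa (-0.96 ± 0.15, adjusted p = 0.00157), CEBPB had 3.55, 3.64 and 1.94 FPKM on 40 kPa, against 5.64, 5.34 and 5.03 FPKM on 1 kPa (-0.68 ± 0.14, adjusted p = 0.00904), and DDIT3 had 16.95, 17.9 and 19.5 FPKM on 40 kPa, against 24.7, 27.9 and 26.4 FPKM on 1 kPa (-0.51 ± 0.08, adjusted p = 0.000914). TRIB3 (chr20:343479-378203), a pseudokinase that ATF4 induces and that binds and restrains it, had 9.67, 8.93 and 6.11 FPKM on 40 kPa, against 12.97, 12.8 and 11.7 FPKM on 1 kPa (-0.57 ± 0.13, adjusted p = 0.0175). None of these 5 genes overlapped between the stiffnesses. The lowest value on 40 kPa of CHAC1, CEBPB and TRIB3 was that of replicate 3, the library that deviates with GC content. The TRIB3 call was kept in 9 of 13 alternatives.

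The serine pathway fell together in RAP2 tKO, all 3 of its enzymes being called. PHGDH, which draws 3-phosphoglycerate from glycolysis, had 159.7, 152 and 124 FPKM on 40 kPa, against 182, 182 and 174 FPKM on 1 kPa (-0.31 ± 0.07, adjusted p = 0.0213). PSAT1, the transaminase of the second step, had 59.1, 60.1 and 63.6 FPKM on 40 kPa, against 70.6, 72.8 and 68.7 FPKM on 1 kPa (-0.21 ± 0.04, adjusted p = 0.00368), and PSPH, the phosphatase of the last step, had 38.97, 35.2 and 34.4 FPKM on 40 kPa, against 46.02, 41.98 and 43.6 FPKM on 1 kPa (-0.27 ± 0.06, adjusted p = 0.0152). No enzyme of the pathway overlapped between the stiffnesses. In WT and in YAP/TAZ dKO all 3 also lay lower on 40 kPa without overlap, though none was called there in the fit over all 24 libraries. The share of all genes without overlap is not given, so this is not read as a fall in those genotypes. For PHGDH and PSPH in RAP2 tKO, the lowest value on 40 kPa was that of replicate 3. Each of these 2 calls in RAP2 tKO was kept in 9 of 13 alternatives. ASNS had 66.9, 61.9 and 80.3 FPKM on 40 kPa, against 94.2, 98.8 and 87.4 FPKM on 1 kPa (-0.43 ± 0.09, adjusted p = 0.012), and ATF4 had 246, 233 and 259.8 FPKM on 40 kPa, against 282, 276 and 263 FPKM on 1 kPa (-0.15 ± 0.04, adjusted p = 0.0479), both without overlap. The ATF4 call was kept in 3 of 13 alternatives.

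Leaving out RAP2 tKO on 40 kPa replicate 3 took TRIB3, PHGDH and PSPH off the list and added VLDLR and CTH, so that 10 members fell beside 2.15% of all genes called. With the other GC-deviating library also left out, 14 fell beside 5.05% of all genes (3.74% lower). Fitted with the 6 RAP2 tKO libraries alone, no member was called, beside 0.0633% of all genes. In the fit over all 24 libraries, stiffness called neither ALDH18A1 and PYCR1, which together turn glutamate into proline, nor CTH and CBS of cysteine synthesis, the kinases EIF2AK3 and EIF2AK4, or GPT2, the mitochondrial alanine transaminase. Some alternatives did call ALDH18A1, PYCR1, CTH or CBS. CBS shares 23172 bases with the near-identical entry CBSL, so that fragments may have been split between the 2 entries.

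ATF4 itself also fell in YAP/TAZ dKO cells, with 226, 231 and 230.0 FPKM on 40 kPa, against 281, 281 and 274 FPKM on 1 kPa (-0.28 ± 0.04, adjusted p = 0.00241). The 3 libraries on 40 kPa lay below the 3 on 1 kPa. In LATS dKO it had 211, 216 and 228 FPKM on 40 kPa, against 251, 243 and 246 FPKM on 1 kPa, without overlap, and missed the threshold (-0.17 ± 0.04, adjusted p = 0.064). PPP1R15A (chr19:49375649-49379314) encodes GADD34, which recruits a phosphatase to eIF2 and so ends the response, and it fell in both of these lines. It had 10.1, 10.3 and 10.9 FPKM on 40 kPa, against 15.7, 15.8 and 14.96 FPKM on 1 kPa in YAP/TAZ dKO (-0.53 ± 0.07, adjusted p = 0.000827), and 18.9, 23.7 and 22.6 FPKM on 40 kPa, against 26.9, 26.96 and 27.7 FPKM on 1 kPa in LATS dKO (-0.32 ± 0.07, adjusted p = 0.0427). In RAP2 tKO it had 23.3, 22.6 and 20.01 FPKM on 40 kPa, against 23.2, 24.02 and 23.5 FPKM on 1 kPa (-0.10 ± 0.07, adjusted p = 0.42), and in WT 20.3, 20.6 and 18.6 FPKM on 40 kPa, against 20.4, 18.8 and 19.1 FPKM on 1 kPa (0.02 ± 0.07, adjusted p = 0.955), with overlap in both. Its call in LATS dKO was kept in 5 of 13 alternatives, and was lost without replicate 1 on 40 kPa or any 1 kPa replicate. Without both GC-deviating libraries, 2 members rose and 2 fell in LATS dKO, beside 3.04% of all genes (1.19% higher and 1.85% lower). In YAP/TAZ dKO 10 fell, beside 2.46% (1.65% lower).

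**Figure D2:**
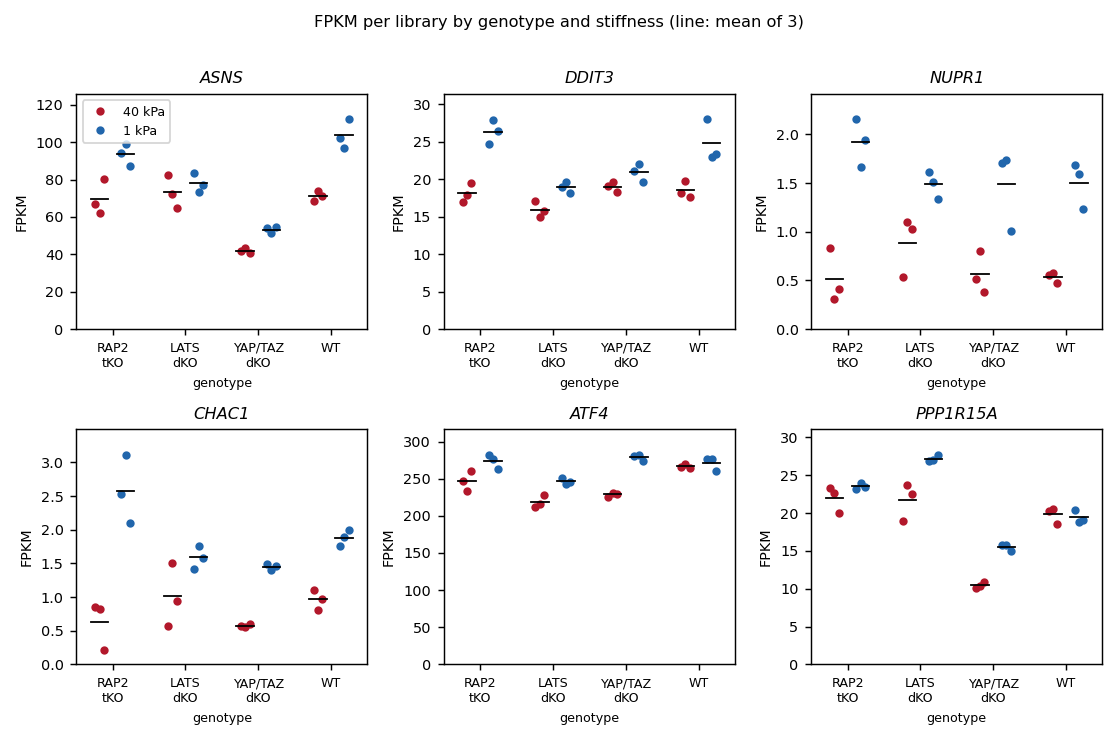
FPKM of 6 members in each of the 24 libraries (points) with the mean of 3 (line), by genotype, 40 kPa in red and 1 kPa in blue; each panel has its own axis from 0. ASNS, DDIT3, NUPR1 and CHAC1 lie lower on 40 kPa without overlap in WT and RAP2 tKO. So do ASNS, NUPR1 and CHAC1 in YAP/TAZ dKO, and DDIT3 and NUPR1 in LATS dKO. ATF4 and PPP1R15A part by stiffness most clearly in YAP/TAZ dKO, PPP1R15A with 10.1, 10.3 and 10.9 FPKM on 40 kPa.

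Whether the response to stiffness differed between a knockout line and WT was tested by the interaction, that is the knockout's difference minus that of WT. Of the 40 members 1 was called, PPP1R15A in YAP/TAZ dKO (-0.55 ± 0.10, adjusted p = 0.012), where 0.392% of all genes were called and 0.133% were lower. For RAP2 tKO and LATS dKO limma called 0 members, beside 0.0505% and 0.0632% of all genes, with 6 and 5 members at an unadjusted p below 0.05. The larger number of members that fell in RAP2 tKO than in WT was therefore not shown to be a different response. No share of all genes at an unadjusted p below 0.05 is given. Counts at that threshold, here and for the other lists, are therefore not read as a result. For CHAC1 the interaction in RAP2 tKO was -0.60 ± 0.22, adjusted p = 0.677, and for ATF4 in YAP/TAZ dKO it was -0.26 ± 0.06, adjusted p = 0.0667. Without both GC-deviating libraries, ATF4 in YAP/TAZ dKO and CEBPB in LATS dKO were called as well (differences -0.26 and 0.57), beside 2.62% and 1.34% of all genes. ASNS in LATS dKO had 82.6, 72.1 and 64.9 FPKM on 40 kPa, against 83.4, 73.4 and 77.2 FPKM on 1 kPa with overlap (-0.10 ± 0.09, adjusted p = 0.724), and its interaction was 0.44 ± 0.13, adjusted p = 0.208. In YAP/TAZ dKO, ASNS had 41.7, 43.2 and 40.8 FPKM on 40 kPa, against 53.8, 51.5 and 54.4 FPKM on 1 kPa, without overlap, but was not called (-0.34 ± 0.09, adjusted p = 0.157).

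For the other stiffness values of the named regulators, none was called. DDIT3 had 17.1, 14.9 and 15.8 FPKM on 40 kPa, against 18.9, 19.6 and 18.2 FPKM on 1 kPa in LATS dKO, and 19.04, 19.7 and 18.3 FPKM on 40 kPa, against 21.1, 22.02 and 19.6 FPKM on 1 kPa in YAP/TAZ dKO. The stiffnesses overlapped in YAP/TAZ dKO and not in LATS dKO. NUPR1 had 0.539, 1.102 and 1.03 FPKM on 40 kPa, against 1.61, 1.51 and 1.34 FPKM on 1 kPa in LATS dKO, and 0.512, 0.803 and 0.377 FPKM on 40 kPa, against 1.71, 1.74 and 1.01 FPKM on 1 kPa in YAP/TAZ dKO, both without overlap (adjusted p = 0.239 and 0.0729). CHAC1 had 0.575, 1.51 and 0.944 FPKM on 40 kPa, against 1.42, 1.76 and 1.59 FPKM on 1 kPa in LATS dKO, where the groups overlapped, and 0.578, 0.559 and 0.594 FPKM on 40 kPa, against 1.49, 1.403 and 1.46 FPKM on 1 kPa in YAP/TAZ dKO, where they did not. TRIB3 had 5.88, 9.04 and 7.196 FPKM on 40 kPa, against 7.51, 7.37 and 8.103 FPKM on 1 kPa in LATS dKO, with overlap. In YAP/TAZ dKO it had 6.39, 6.398 and 6.03 FPKM on 40 kPa, against 8.94, 8.87 and 8.97 FPKM on 1 kPa, and in WT 8.05, 7.44 and 8.12 FPKM on 40 kPa, against 10.2, 10.4 and 8.92 FPKM on 1 kPa, both without overlap.

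The cytosolic tRNA synthetases, which load each amino acid onto its transfer RNA, are abundant in these cells. Their medians over the 24 libraries lay between 28.7 FPKM for CARS and 776 FPKM for MARS. Of the 12, CARS alone fell with stiffness, in RAP2 tKO, where it had 26.8, 25.3 and 26.3 FPKM on 40 kPa, against 32.6, 35.7 and 31.9 FPKM on 1 kPa without overlap (-0.34 ± 0.07, adjusted p = 0.00818). Of all genes, 2.88% fell in RAP2 tKO. The share called in either direction stands above for each genotype. No synthetase of the 12 was called in LATS dKO, YAP/TAZ dKO or WT, where 2, 1 and 1 had an unadjusted p below 0.05 in limma. The median difference of the 12 was 0.06 in RAP2 tKO, -0.04 in LATS dKO, -0.03 in YAP/TAZ dKO and -0.03 in WT. The 28 other members tested had medians of -0.28, -0.17, -0.15 and -0.12 in the same order. That contrast was not tested as such, and no p-value is attached to it.

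By library, medians were taken against the mean of WT on 1 kPa. There, the synthetase median was between -0.04 and -0.00 in the 3 WT libraries on 40 kPa, and that of the other members between -0.15 and -0.12. In RAP2 tKO on 40 kPa the synthetase median was 0.01 and -0.04 in replicates 1 and 2, below the 0.03 to 0.10 of the 1 kPa libraries, and 0.18 in replicate 3, above them. In that replicate 9 of the 12 synthetases lay above both other replicates, among them GARS, YARS and NARS, and the other 28 members split into 13 above and 14 below. In YAP/TAZ dKO the synthetase median was also lower on stiff gels, between -0.21 and -0.15 on 40 kPa and between -0.12 and -0.09 on 1 kPa. In LATS dKO on 40 kPa, replicate 2 had a lower median for the synthetases (-0.19) than for the other members (-0.03). In replicate 1 of LATS dKO on 40 kPa, 8 synthetases lay above both other replicates and 3 below. What sets these libraries apart was not tested.

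**Figure D3:**
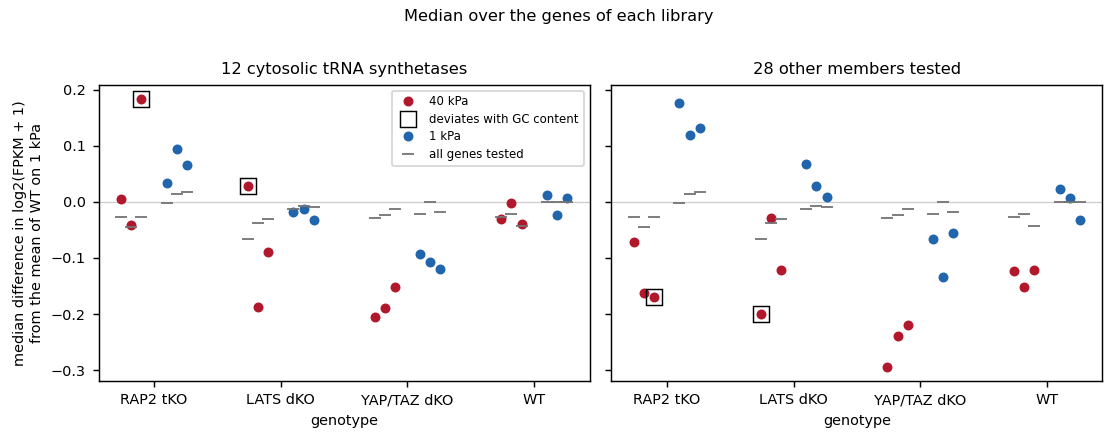
Median difference in log2(FPKM + 1) from the mean of WT on 1 kPa, over 12 synthetases (left) and 28 other members (right), for each library by genotype, 40 kPa in red and 1 kPa in blue; grey dashes are the median of all genes tested and squares mark the 2 libraries that deviate with GC content. The other members lie lower on 40 kPa in every genotype, with 1 LATS dKO library close to the 1 kPa values, while the synthetases lie lower on 40 kPa in YAP/TAZ dKO, overlap in WT and LATS dKO, and overlap in RAP2 tKO through replicate 3 (square) alone.

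Between genotypes the members moved in both directions. Each knockout line was compared with WT by averaging its difference over both stiffnesses, and the 3 comparisons share the 6 WT libraries. In RAP2 tKO 10 members rose and 2 fell, against 16% of all genes called (7.4% higher and 8.57% lower). In LATS dKO 5 rose and 9 fell, against 33.9% (16% and 17.8%), and in YAP/TAZ dKO 7 rose and 16 fell, against 50.6% (23.6% and 27%). The members' shares of 35% in LATS dKO and 57.5% in YAP/TAZ dKO were close to those of all genes. At least 1 comparison called 29 members, and 5 were called in opposite directions in different lines. PSAT1 was the 1 member that fell in all 3 lines. These counts across lines have no share of all genes beside them and are not read as a result about the members. Markers moved between the lines as well. KRT8 and KRT18 rose in RAP2 tKO (0.66 and 0.55) and LATS dKO (1.42 and 1.18) and fell in YAP/TAZ dKO (-2.50 and -1.80). PAX2 and LHX1 fell in LATS dKO (-0.26 and -1.32) and rose in YAP/TAZ dKO (0.52 and 0.87), which makes 4 of 7 epithelial and kidney markers called in these 2 lines. Their summed level was 524 to 599.7 FPKM in RAP2 tKO, 862 to 959.6 FPKM in LATS dKO and 82.2 to 97.4 FPKM in YAP/TAZ dKO, against 276 to 489 FPKM in WT. Of 4 fibroblast markers LUM was called, with 0.60 in RAP2 tKO, 2.35 in LATS dKO and -0.82 in YAP/TAZ dKO, while DCN was at 0 in every library. The fibroblast sum was 4.75 to 7.60 FPKM in RAP2 tKO, 12.8 to 16.6 FPKM in LATS dKO and 6.02 to 7.56 FPKM in YAP/TAZ dKO, against 5.43 to 6.52 FPKM in WT. The part of these markers in the members' differences was not tested.

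**Figure D4:**
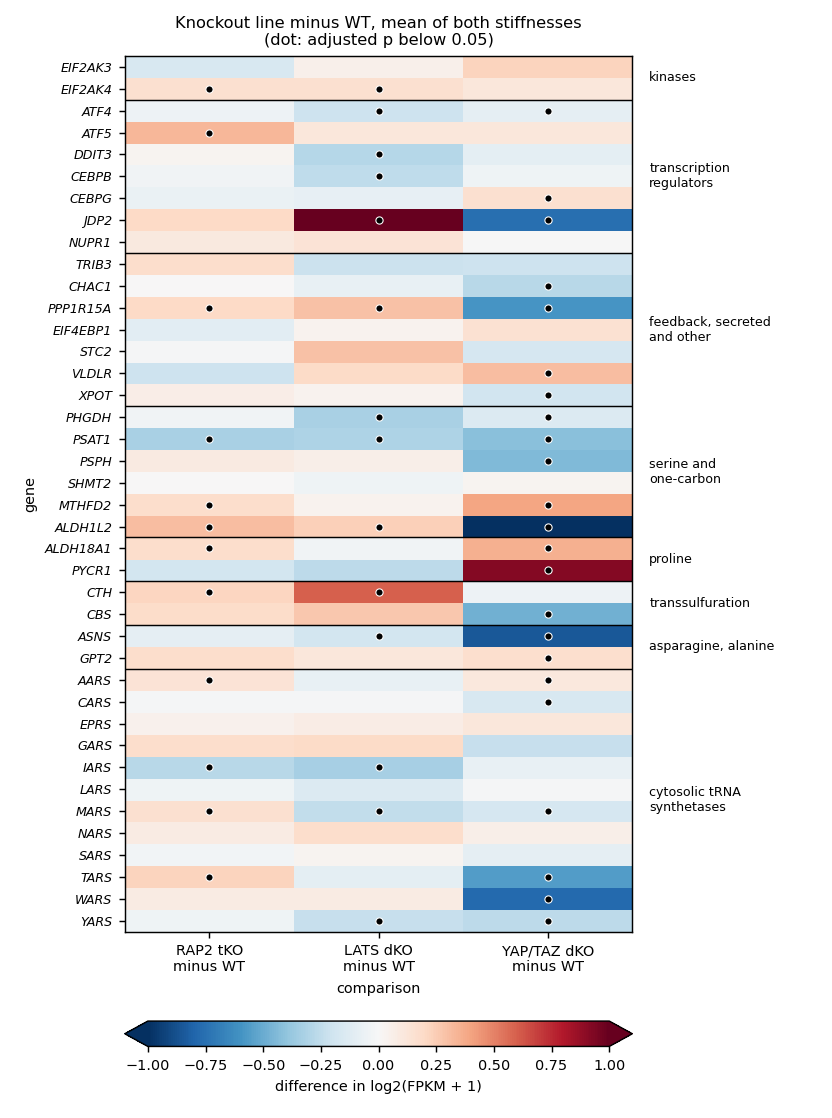
Difference in log2(FPKM + 1) between each knockout line and WT, as the mean of both stiffnesses, for the 40 members tested (rows, grouped by role); red is higher in the knockout, dots mark an adjusted p below 0.05, and values beyond 1 on either side are drawn in the end colours. JDP2 (1.70) and ALDH1L2 (-2.17) lie beyond the scale, and PSAT1 is blue in all 3 columns.

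PSAT1 (chr9:80912059-80945009) had 59.1, 60.1 and 63.6 FPKM on 40 kPa and 70.6, 72.8 and 68.7 FPKM on 1 kPa in RAP2 tKO, 66.7, 65.04 and 63.95 FPKM on 40 kPa and 67.4, 68.4 and 65.7 FPKM on 1 kPa in LATS dKO and 60.8, 56.8 and 59.2 FPKM on 40 kPa and 62.4, 64.3 and 64.8 FPKM on 1 kPa in YAP/TAZ dKO. PSAT1 in WT had 79.2, 80.00 and 79.5 FPKM on 40 kPa and 86.1, 84.8 and 84.4 FPKM on 1 kPa. Every knockout library lay below every WT library. The differences were -0.32 ± 0.03, adjusted p = 9.81e-08 in RAP2 tKO, -0.31 ± 0.03, adjusted p = 3.42e-08 in LATS dKO and -0.42 ± 0.03, adjusted p = 2.33e-10 in YAP/TAZ dKO. PHGDH, the first enzyme of the same pathway, had 112, 129.7 and 129.8 FPKM on 40 kPa and 142, 144 and 136 FPKM on 1 kPa in LATS dKO and 139, 139 and 144 FPKM on 40 kPa and 157, 158 and 162 FPKM on 1 kPa in YAP/TAZ dKO. PHGDH in WT had 156, 156 and 155 FPKM on 40 kPa and 183, 176 and 165 FPKM on 1 kPa. It fell in LATS dKO (-0.32 ± 0.05, adjusted p = 6.14e-05) and in YAP/TAZ dKO (-0.14 ± 0.05, adjusted p = 0.0267), in the second with overlap. PSPH fell in YAP/TAZ dKO (-0.44 ± 0.04, adjusted p = 5.19e-08), where its values were 26.3, 24.8 and 25.1 FPKM on 40 kPa and 29.97, 28.7 and 28.4 FPKM on 1 kPa, against 35.99, 34.9 and 36.1 FPKM on 40 kPa and 39.2, 37.5 and 40.2 FPKM on 1 kPa in WT. SHMT2, which passes the carbon of serine to folate in mitochondria, was not called in any comparison.

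The mitochondrial folate enzymes parted in YAP/TAZ dKO. ALDH1L2 (chr12:105413562-105478355), which oxidises formyl-tetrahydrofolate and yields NADPH, showed the largest difference of all members. It had 0.233, 0.152 and 0.185 FPKM on 40 kPa and 0.158, 0.3800 and 0.251 FPKM on 1 kPa in YAP/TAZ dKO, 4.902, 5.22 and 5.67 FPKM on 40 kPa and 5.77, 7.75 and 6.01 FPKM on 1 kPa in RAP2 tKO and 5.18, 5.27 and 4.19 FPKM on 40 kPa and 6.34, 5.98 and 6.26 FPKM on 1 kPa in LATS dKO. ALDH1L2 in WT had 3.74, 3.98 and 3.82 FPKM on 40 kPa and 5.26, 4.93 and 5.59 FPKM on 1 kPa. All 6 YAP/TAZ dKO libraries were below 0.4 FPKM, a level at which its deposited intervals are wide. The difference was -2.17 ± 0.07, adjusted p = 5.82e-15 in YAP/TAZ dKO, 0.31 ± 0.07, adjusted p = 0.00318 in RAP2 tKO and 0.24 ± 0.07, adjusted p = 0.00994 in LATS dKO, the last 2 with overlap. MTHFD2, the dehydrogenase of the step before, had 134, 125 and 131 FPKM on 40 kPa and 138, 143 and 137 FPKM on 1 kPa in YAP/TAZ dKO, against 98.96, 107 and 98.9 FPKM on 40 kPa and 106, 103 and 102 FPKM on 1 kPa in WT, and rose without overlap (0.39 ± 0.05, adjusted p = 1.43e-06). ALDH1L2 lies over the entry C12orf45 for 29954 bases, and fragments of that stretch may be shared.

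Both enzymes of proline synthesis rose in YAP/TAZ dKO. PYCR1 (chr17:79890260-79900288), the reductase of the last step, had 157, 157 and 161 FPKM on 40 kPa and 175, 203 and 205 FPKM on 1 kPa, against 82.9, 88.8 and 86.6 FPKM on 40 kPa and 101, 106 and 89.6 FPKM on 1 kPa in WT, a difference of 0.92 ± 0.16, adjusted p = 8.37e-05. ALDH18A1, which starts the path from glutamate, had 138, 143 and 147 FPKM on 40 kPa and 151, 150.1 and 145 FPKM on 1 kPa in YAP/TAZ dKO, against 118, 119 and 119.7 FPKM on 40 kPa and 116, 107 and 103 FPKM on 1 kPa in WT (0.35 ± 0.05, adjusted p = 1.01e-05). Neither overlapped. In RAP2 tKO, ALDH18A1 also rose (0.18 ± 0.05, adjusted p = 0.0223), with 129, 127 and 161 FPKM on 40 kPa and 124, 117 and 118 FPKM on 1 kPa. PYCR1 was at 41.5 and 45.5 FPKM in the GC-deviating libraries of RAP2 tKO and LATS dKO, well under the other replicates of those groups.

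**Figure D5:**
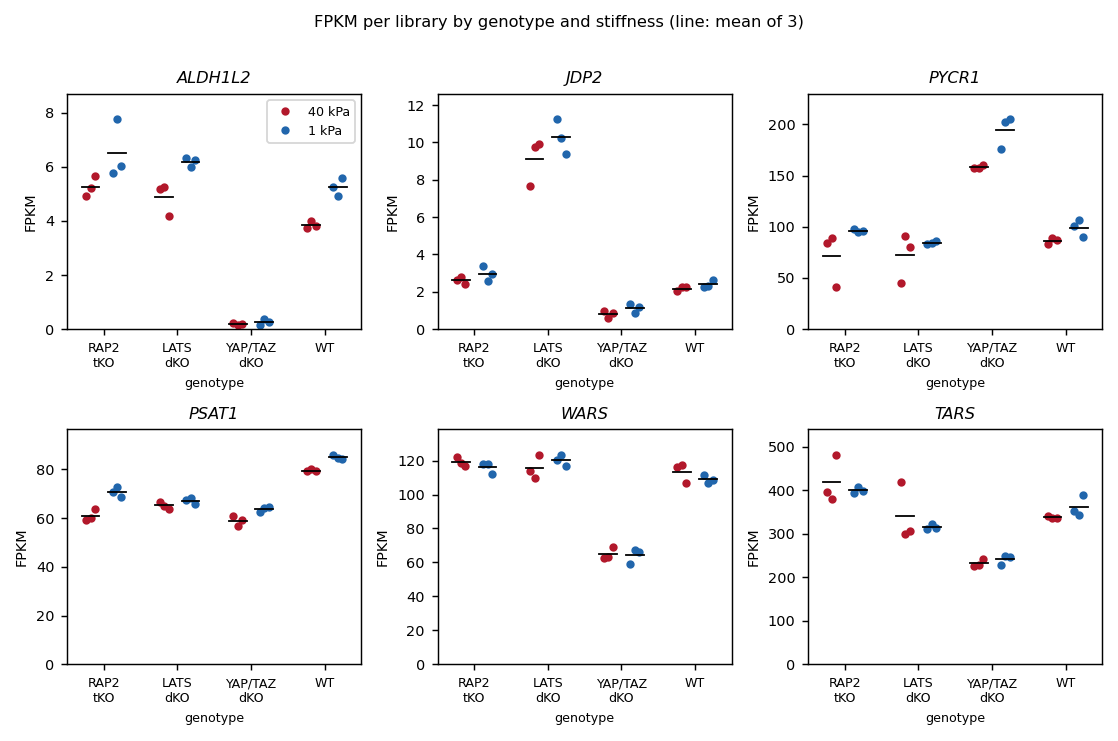
FPKM of 6 members that differ between genotypes, in each library (points) with the mean of 3 (line), 40 kPa in red and 1 kPa in blue; each panel has its own axis from 0. ALDH1L2, JDP2, WARS and TARS are lowest and PYCR1 highest in YAP/TAZ dKO, JDP2 is highest in LATS dKO, and PSAT1 is lower in all 3 knockouts than in WT.

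ASNS fell in YAP/TAZ dKO (-0.85 ± 0.06, adjusted p = 2.14e-09), where all 6 values listed above lay below those of every WT library, the highest being 54.4 FPKM against a lowest of 68.5 FPKM in WT. It also fell in LATS dKO, with overlap (-0.19 ± 0.06, adjusted p = 0.0289; kept in 12 of 19 alternatives). That fall lay on the soft gel, where ASNS averaged 78.0 FPKM, against 104 FPKM in WT. On 40 kPa it averaged 73.2 FPKM, against 71.2 FPKM in WT. GPT2 had 28.8, 29.7 and 30.3 FPKM on 40 kPa and 31.3, 30.5 and 30.6 FPKM on 1 kPa in YAP/TAZ dKO, against 27.00, 27.6 and 28.1 FPKM on 40 kPa and 27.9, 24.5 and 25.3 FPKM on 1 kPa in WT (0.17 ± 0.07, adjusted p = 0.042). That call was kept in 6 of 19 alternatives. CTH, which makes cysteine from cystathionine, had 11.3, 11.3 and 11.5 FPKM on 40 kPa and 11.9, 13.2 and 13.8 FPKM on 1 kPa in LATS dKO and 8.14, 6.71 and 9.56 FPKM on 40 kPa and 9.84, 10.99 and 9.72 FPKM on 1 kPa in RAP2 tKO. CTH in WT had 7.502, 6.99 and 7.58 FPKM on 40 kPa and 8.36, 9.01 and 6.82 FPKM on 1 kPa. It rose in LATS dKO without overlap (0.60 ± 0.07, adjusted p = 2.42e-06) and in RAP2 tKO with overlap (0.21 ± 0.07, adjusted p = 0.0469), the second call being kept in 5 of 19 alternatives. CBS, one step before, fell in YAP/TAZ dKO (-0.48 ± 0.12, adjusted p = 0.00288).

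Among the transcription regulators, JDP2 (chr14:75894419-75940814), a repressor of the AP-1 family, moved furthest. It had 7.68, 9.78 and 9.93 FPKM on 40 kPa and 11.2, 10.2 and 9.39 FPKM on 1 kPa in LATS dKO and 0.963, 0.612 and 0.843 FPKM on 40 kPa and 1.33, 0.855 and 1.196 FPKM on 1 kPa in YAP/TAZ dKO. JDP2 in WT had 2.02, 2.24 and 2.26 FPKM on 40 kPa and 2.28, 2.31 and 2.66 FPKM on 1 kPa. LATS dKO lay above and YAP/TAZ dKO below WT, both without overlap, and the differences were 1.70 ± 0.08, adjusted p = 4.44e-12 and -0.75 ± 0.08, adjusted p = 1.59e-07. ATF4 fell in LATS dKO, every library lying below every WT library (-0.21 ± 0.03, adjusted p = 1.79e-05), and in YAP/TAZ dKO with overlap (-0.09 ± 0.03, adjusted p = 0.0169). The fall in YAP/TAZ dKO lay on the stiff gel, where ATF4 averaged 229 FPKM, against 267 FPKM in WT. On 1 kPa it averaged 279 FPKM, against 271 FPKM in WT. ATF5 rose in RAP2 tKO, with 42.5, 43.7 and 28.1 FPKM on 40 kPa and 40.96, 37.8 and 35.8 FPKM on 1 kPa, against 34.4, 30.8 and 31.1 FPKM on 40 kPa and 27.7, 29.04 and 26.4 FPKM on 1 kPa in WT (0.33 ± 0.09, adjusted p = 0.0133). It was not called in LATS dKO, with 28.7, 38.9 and 35.1 FPKM on 40 kPa and 29.8, 31.9 and 30.1 FPKM on 1 kPa, or in YAP/TAZ dKO, with 32.7, 31.9 and 32.4 FPKM on 40 kPa and 31.6, 30.4 and 34.4 FPKM on 1 kPa. In LATS dKO, DDIT3 (-0.29 ± 0.05, adjusted p = 0.000393) and CEBPB (-0.26 ± 0.10, adjusted p = 0.0485) fell with overlap, CEBPB having 2.73, 4.24 and 3.89 FPKM on 40 kPa and 2.84, 2.97 and 3.31 FPKM on 1 kPa. The CEBPB call was kept in 4 of 19 alternatives, that of DDIT3 in 19 of 19. MARS, which overlaps DDIT3, fell in LATS dKO as well, and fragments of the overlap may be shared. CEBPG, which pairs with ATF4, rose in YAP/TAZ dKO (0.16 ± 0.04, adjusted p = 0.00574), and CEBPB there had 3.42, 3.699 and 3.85 FPKM on 40 kPa and 4.42, 4.09 and 4.51 FPKM on 1 kPa and was not called.

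The feedback gene PPP1R15A went opposite ways. It rose in RAP2 tKO (0.20 ± 0.05, adjusted p = 0.00801) and LATS dKO (0.29 ± 0.05, adjusted p = 0.000137), with overlap, and fell in YAP/TAZ dKO (-0.59 ± 0.05, adjusted p = 1.16e-08), where the highest value, 15.8 FPKM, lay under the lowest WT value of 18.6 FPKM. The kinase EIF2AK4, which senses uncharged transfer RNA, had 16.4, 15.4 and 19.02 FPKM on 40 kPa and 17.6, 17.2 and 17.2 FPKM on 1 kPa in RAP2 tKO and 18.5, 16.1 and 15.97 FPKM on 40 kPa and 17.4, 16.97 and 17.5 FPKM on 1 kPa in LATS dKO. EIF2AK4 in WT had 15.3, 15.3 and 13.97 FPKM on 40 kPa and 14.8, 14.8 and 16.7 FPKM on 1 kPa. It rose slightly in both (0.16 ± 0.05, adjusted p = 0.0335, and 0.16 ± 0.05, adjusted p = 0.0188), with overlap, and the call was kept in 10 of 19 alternatives in RAP2 tKO and 17 of 19 in LATS dKO. The other kinase, EIF2AK3, was not called in any comparison. VLDLR, a lipoprotein receptor, had 9.29, 8.68 and 10.5 FPKM on 40 kPa and 9.39, 9.195 and 8.504 FPKM on 1 kPa in YAP/TAZ dKO, against 7.03, 6.06 and 6.32 FPKM on 40 kPa and 7.59, 8.26 and 8.56 FPKM on 1 kPa in WT, and rose (0.31 ± 0.08, adjusted p = 0.00202). XPOT, which carries transfer RNA out of the nucleus, and CHAC1 fell in YAP/TAZ dKO (-0.19 ± 0.05, adjusted p = 0.00439, and -0.27 ± 0.11, adjusted p = 0.0483), the XPOT call being kept in 19 of 19 alternatives and the CHAC1 call in 4 of 18. The translation repressor EIF4EBP1, the secreted glycoprotein STC2, TRIB3 and NUPR1 were not called between genotypes.

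By genotype, 4 of 12 synthetases were called in RAP2 tKO, 3 in LATS dKO and 6 in YAP/TAZ dKO, beside the shares of all genes given above. WARS (chr14:100800125-100843142), for tryptophan, had 62.6, 63.05 and 69.3 FPKM on 40 kPa and 59.1, 67.2 and 66.3 FPKM on 1 kPa in YAP/TAZ dKO, against 116, 117 and 107 FPKM on 40 kPa and 111, 107 and 109 FPKM on 1 kPa in WT (-0.77 ± 0.04, adjusted p = 1.44e-11). TARS, for threonine, had 227, 229 and 243 FPKM on 40 kPa and 229, 248 and 247 FPKM on 1 kPa in YAP/TAZ dKO and 396, 379 and 481 FPKM on 40 kPa and 393, 408 and 397 FPKM on 1 kPa in RAP2 tKO. TARS in WT had 341, 336 and 336 FPKM on 40 kPa and 353, 344 and 389 FPKM on 1 kPa. It fell in YAP/TAZ dKO (-0.56 ± 0.07, adjusted p = 2.15e-06) without overlap and rose in RAP2 tKO (0.22 ± 0.07, adjusted p = 0.0362) with overlap, where the call was kept in 9 of 19 alternatives. IARS, for isoleucine, had 314, 310.2 and 401 FPKM on 40 kPa and 309.8, 337 and 297 FPKM on 1 kPa in RAP2 tKO and 341, 307 and 318 FPKM on 40 kPa and 306, 295 and 322 FPKM on 1 kPa in LATS dKO. IARS in WT had 382, 389.6 and 398 FPKM on 40 kPa and 380.0, 401 and 419 FPKM on 1 kPa. It fell in both lines (-0.27 ± 0.06, adjusted p = 0.00243, and -0.33 ± 0.06, adjusted p = 0.000176), and overlapped WT in RAP2 tKO through replicate 3 on 40 kPa.

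MARS, for methionine, rose in RAP2 tKO (0.16 ± 0.05, adjusted p = 0.0369) and fell in LATS dKO (-0.25 ± 0.05, adjusted p = 0.000984) and YAP/TAZ dKO (-0.17 ± 0.05, adjusted p = 0.00976), each with overlap. YARS, for tyrosine, fell in LATS dKO (-0.23 ± 0.08, adjusted p = 0.0298) and YAP/TAZ dKO (-0.27 ± 0.08, adjusted p = 0.00854). AARS, for alanine, rose slightly in RAP2 tKO (0.14 ± 0.04, adjusted p = 0.0203) and YAP/TAZ dKO (0.10 ± 0.04, adjusted p = 0.0326), and CARS, for cysteine, fell in YAP/TAZ dKO (-0.16 ± 0.05, adjusted p = 0.0101). The weaker of these calls were MARS in RAP2 tKO, kept in 8 of 19 alternatives, YARS in LATS dKO, kept in 11 of 19, and AARS in YAP/TAZ dKO, kept in 11 of 19. EPRS, GARS, LARS, NARS and SARS were called in no comparison. Without both GC-deviating libraries the synthetase calls came to 7 of 12 in RAP2 tKO, 6 in LATS dKO and 10 in YAP/TAZ dKO. All genes were then called at 27.8% in RAP2 tKO, 42.7% in LATS dKO and 61.6% in YAP/TAZ dKO.

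Other genes of the pathway were taken from lists of textbook membership. Of 14 further ATF4 targets tested, 3 fell and 1 rose with stiffness in RAP2 tKO and 1 fell in WT. Of all genes, 3.87% and 0.986% were called for stiffness in these 2 genotypes. No target of this list was called in LATS dKO or YAP/TAZ dKO, where 2 and 6 had an unadjusted p below 0.05 in limma. DDIT4, an inhibitor of the growth kinase mTORC1, averaged 3.35 ± 0.7200 FPKM on 40 kPa and 12.1 ± 1.25 FPKM on 1 kPa in RAP2 tKO, and 4.81 ± 0.294 and 10.3 ± 1.11 FPKM in WT (SD, n = 3 each). It fell in both, with differences of -1.60 in RAP2 tKO and -0.95 in WT. In RAP2 tKO the glycine transporter SLC6A9 fell (-0.81 ± 0.13, adjusted p = 0.00161), and ATF3, a stress factor related to ATF4, rose (0.79 ± 0.11, adjusted p = 0.000575).

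Against WT, the targets showed 2 rises and 3 falls of 14 in RAP2 tKO, 4 and 6 in LATS dKO and 4 and 5 in YAP/TAZ dKO, beside 16%, 33.9% and 50.6% of all genes called in those lines. Both chains of an amino acid transporter fell in YAP/TAZ dKO. SLC7A5 averaged 60.8 ± 2.69 FPKM on 40 kPa and 70.2 ± 3.83 FPKM on 1 kPa in YAP/TAZ dKO, against 949 ± 36.6 and 681 ± 23.2 FPKM in WT, and its partner SLC3A2 averaged 231 ± 20.6 and 261 ± 15.7 FPKM in YAP/TAZ dKO, against 1083 ± 55.2 and 927 ± 53.2 FPKM in WT. The differences were -3.60 and -2.02, while DDIT4 rose by 2.83 in the same comparison. Of the 11 remaining cytosolic synthetase genes and their scaffold, VARS alone was called for stiffness, rising in RAP2 tKO (0.23 ± 0.06, adjusted p = 0.0311) and in WT (0.31 ± 0.06, adjusted p = 0.0104). There, 3.87% and 0.986% of all genes were called. Against WT, 3 of the 11 rose and 1 fell in RAP2 tKO, 6 rose in LATS dKO, and 2 rose and 5 fell in YAP/TAZ dKO. The shares of all genes called against WT were 16%, 33.9% and 50.6%.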

How the data were processed

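Messenger RNA of 24 HEK293A libraries was measured by sequencing. Per the submitters' processing notes, the authors used STAR 2.4.2a and Cufflinks 2.2.1 on human build hg19. They deposited, per library, a table of gene FPKM values with confidence intervals, that is estimated fragments divided by transcript length and library depth. The sources used here do not give the annotation, the strand setting or the treatment of multiply matching reads. Each table held 60350 entries under 58266 symbols. Entries sharing a symbol were summed (338 symbols), and 92 symbols with a failed status in some library were left out. Depth was estimated from the width of the deposited intervals at genes with few fragments, and intervals cover estimation error within a library only.

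From these values log2(FPKM + 1) was fitted with limma 3.58.1 in R 4.3.3, with 1 mean for each of the 8 groups (16 residual degrees of freedom) and a trend of the spread on the level, over 15828 genes with at least 1 FPKM in at least 3 libraries. Tests were two-sided, with Benjamini-Hochberg adjustment over all genes within each of 10 contrasts, and ± denotes the standard error unless an SD is named. The series text calls the replicates biological. The fitting step was first tested on simulated data.

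The members, the lists and the rule for values were chosen with earlier results of these data known. All members are named, and every library's values are given for ATF4, ATF5, DDIT3 and the called members with the largest differences, up to 5 per direction and contrast. Of the other lists, up to 3 called genes per list and contrast are given, by fitted difference or by group means with SD. Alternatives were another pseudocount (0.1), no filter or 5 FPKM, median-ratio scaling, the replicate block, the compared groups alone and libraries left out. Promoter windows come from RefSeq (GRCh38.p14).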

Additional observations from a re-analysis of the deposited data

Results flagged for a closer look

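PPP1R15A was the 1 member whose response to stiffness differed between a knockout line and WT by the test of the difference itself. The YAP/TAZ dKO response minus that of WT was -0.55 ± 0.10, adjusted p = 0.012 (limma). In YAP/TAZ dKO the gene had 10.1, 10.3 and 10.9 FPKM on 40 kPa, against 15.7, 15.8 and 14.96 FPKM on 1 kPa. In WT it had 20.3, 20.6 and 18.6 FPKM on 40 kPa, against 20.4, 18.8 and 19.1 FPKM on 1 kPa. All 3 YAP/TAZ dKO libraries on 40 kPa lay below all 3 on 1 kPa, while the WT groups overlapped.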

How the results depend on the processing

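Of 67 member calls, 36 held in every alternative run, and over 1167 repeats of a call under an alternative 993 kept it, 174 lost it and none turned its direction. The calls that held throughout included ASNS in WT, ATF4 and PPP1R15A in YAP/TAZ dKO on stiffness, and 19 of the 23 in YAP/TAZ dKO against WT, but none of the 11 stiffness calls in RAP2 tKO. Without both GC-deviating libraries, 1 member rose and 11 fell with stiffness in WT, 2 and 2 in LATS dKO, and 10 fell in YAP/TAZ dKO. Of all genes, 6.42%, 3.04% and 2.46% were called there. Against WT, 16 rose and 8 fell in RAP2 tKO, 12 and 13 in LATS dKO and 12 and 20 in YAP/TAZ dKO. All genes were called at 27.8%, 42.7% and 61.6% in those lines. For the interactions, 1 rose in LATS dKO and 2 fell in YAP/TAZ dKO, beside 1.34% and 2.62% of all genes. With the compared groups fitted alone, 0 members fell with stiffness in RAP2 tKO, 0 in LATS dKO, 5 in YAP/TAZ dKO and 1 in WT. Of all genes, 0.0633%, 0.0211%, 0.945% and 0.462% were called in these fits. Against WT, 3 rose and 2 fell in RAP2 tKO, 8 and 10 in LATS dKO and 12 and 20 in YAP/TAZ dKO. All genes were then called at 12.1%, 34.1% and 63%. For the YAP/TAZ dKO interaction 2 members fell, beside 1.81% of all genes. Scaling to a common median ratio gave 1 riser for stiffness in RAP2 tKO, 0 fallers in LATS dKO and 2 for the YAP/TAZ dKO interaction. Of all genes, 4.33%, 0.31% and 0.468% were called there. Without a filter on low values, 0 fell with stiffness in LATS dKO, beside 0.292% of all genes called. In RAP2 tKO against WT 6 then rose, beside 6.32% of all genes called. The cause of these shifts was not tested.

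With 1 replicate left out at a time, the number falling with stiffness was 7 to 13 in RAP2 tKO, 0 to 2 in LATS dKO, 2 to 3 in YAP/TAZ dKO and 1 to 2 in WT. Of all genes, 1.63% to 7.22%, 0.108% to 1.61%, 0.184% to 0.272% and 0.291% to 0.665% were called in these runs. Against WT, 5 to 10 rose and 2 to 4 fell in RAP2 tKO, 4 to 7 rose and 6 to 11 fell in LATS dKO, and 5 to 7 rose and 14 to 16 fell in YAP/TAZ dKO. All genes were then called at 13.1% to 18.7%, 30.5% to 34.4% and 47.6% to 48.2%. For stiffness, 7 fell in RAP2 tKO without its replicate 1 or 2 on 1 kPa, and 1 fell in WT without its replicate 1 on either stiffness or 3 on 40 kPa. In LATS dKO 0 fell without any 1 kPa replicate or replicate 1 on 40 kPa, and 2 without replicate 3 on 40 kPa. In RAP2 tKO against WT, 5 rose without WT replicate 3 on 40 kPa or RAP2 tKO replicate 1 on 1 kPa, 6 without replicate 2 on 1 kPa of either, and 4 fell without RAP2 tKO replicate 3 on 40 kPa. Pairing by replicate number was not seen, since in 0 of 10 pairs of groups did every same-numbered correlation exceed 0.1 (range -0.154 to 0.084). The labels do not say what a replicate number stands for, and a shared day or batch was not tested. With the replicate block 0 members fell with stiffness in LATS dKO, beside 0.36% of all genes called, while no other count moved by over 1.5 times. Depth limits NUPR1, CHAC1, JDP2 and, in YAP/TAZ dKO, ALDH1L2, whose deposited upper bounds lie 120%, 84.4%, 73.4% and 175% above the value in the least precise library.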

Other observations

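Of 15 genes of the translation factor eIF2 and its regulators, upstream of ATF4, limma called none for stiffness in any genotype, with 1, 2, 0 and 2 at an unadjusted p below 0.05 in RAP2 tKO, in LATS dKO, in YAP/TAZ dKO and in WT. In YAP/TAZ dKO 3 rose and 9 fell, beside 50.6% of all genes called, led by EIF2S1, the subunit that the stress kinases phosphorylate, which averaged 132 ± 1.85 FPKM on 40 kPa and 130.5 ± 4.95 FPKM on 1 kPa in YAP/TAZ dKO, against 229 ± 8.32 and 212 ± 5.99 FPKM in WT (SD, n = 3 each). In RAP2 tKO 4 rose and none fell, beside 16% of all genes called, and in LATS dKO 6 rose and 2 fell, beside 33.9%.

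The ATF6 and XBP1 branch of the unfolded protein response, which raises chaperones of the endoplasmic reticulum, held a few genes that rose with stiffness. The chaperone HSPA5 rose in RAP2 tKO (0.21 ± 0.04, adjusted p = 0.00798) and in WT (0.22 ± 0.04, adjusted p = 0.0135), and PDIA4, a disulfide isomerase, rose in WT (0.31 ± 0.07, adjusted p = 0.0257). These were 1 and 2 of 16 genes tested, with none falling, beside 3.87% and 0.986% of all genes called for stiffness. Limma called none of the 16 in LATS dKO or YAP/TAZ dKO, where 2 and 3 had an unadjusted p below 0.05. Against WT, 1 rose and 7 fell in RAP2 tKO, 5 rose and 2 fell in LATS dKO, and 3 rose and 7 fell in YAP/TAZ dKO, beside 16%, 33.9% and 50.6% of all genes.

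Of 17 mitochondrial tRNA synthetases, 1 was called for stiffness, LARS2, which rose in RAP2 tKO (0.32 ± 0.08, adjusted p = 0.0232), where 3.87% of all genes were called. VARS2 averaged 76.7 ± 5.51 FPKM on 40 kPa and 68.7 ± 2.05 FPKM on 1 kPa in YAP/TAZ dKO, against 31.6 ± 1.92 and 30.1 ± 0.518 FPKM in WT, and rose (1.21 ± 0.06, adjusted p = 3.7e-12). In all, 2 rose and none fell in RAP2 tKO, 5 rose and 2 fell in LATS dKO, and 2 rose and 2 fell in YAP/TAZ dKO against WT. The shares of all genes called against WT were 16%, 33.9% and 50.6%. Of 16 further serine, one-carbon and proline enzymes, PRODH, which breaks proline down, fell with stiffness in RAP2 tKO (-0.69 ± 0.13, adjusted p = 0.00475) and was the 1 gene of the list called for stiffness. Against WT, 1 rose and 2 fell in RAP2 tKO, 3 rose and 4 fell in LATS dKO, and 3 rose and 5 fell in YAP/TAZ dKO, again beside those shares.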
